A study of Caenorhabditis elegans with 8 samples.

Results

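The sperm genes of Caenorhabditis elegans were followed in RNA from whole hermaphrodites on day 5 of adulthood. They were taken by name from the deposited count table as every gene of the msp, ssp, nspd and spe classes with a plain number, together with gsp-3, gsp-4 and fer-1. This gave 83 of 46739 genes: 35 msp, 12 nspd, 12 ssp and 21 spe genes and the 3 single genes. All animals were of the wild-type strain N2. Synchronized young adults received 1 of 3 RNA interference (RNAi) treatments, which supply double-stranded RNA matching a chosen gene. 3 libraries carry the label of RNAi against isoform A of vab-3, the worm counterpart of Pax6, 3 carry the label of isoform C, and 2 control libraries, numbered 1 and 3, are of worms given the vector L4440 with no insert. Whether replicates were separate cultures is not in the labels, so a p-value here reflects the scatter of these samples, which may be technical.

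C. elegans hermaphrodites make sperm once, late in larval life, and then switch the germ line to oocytes. Their own sperm are used up in the first days of adulthood. Messenger RNA for sperm proteins is made in spermatocytes, and mature sperm are thought to transcribe little or nothing. Major sperm protein (MSP), encoded by the msp genes, is the cytoskeletal protein that drives the crawling of the amoeboid sperm. MSP is also released as a signal that starts oocyte maturation and contraction of the gonadal sheath.

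Total counts per library ran from 30289733 to 43364047. The level of vab-3 was 4.43, 5.52 and 4.38 CPM (counts per 1000000 of the scaled library size) in A-labelled libraries 1, 2 and 3. It was 4.08, 2.04 and 4.84 CPM in C-labelled libraries 1, 2 and 3, against 2.23 and 2.12 CPM in control libraries 1 and 3. In 5 of the 6 RNAi libraries the targeted gene thus stood above both controls, so a knockdown was not seen in the count of the whole gene. That count does not separate isoforms A and C, so the knockdown of either isoform was not tested. A direction given here is one between labelled libraries.

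The msp genes are short and nearly alike. All 35 have a single exon. Of the 31 with an annotated coding sequence, 28 encode 127 residues. The remaining 4 (msp-37, msp-42, msp-52 and msp-71) are annotated as pseudogenes. In build WBcel235 the 35 genes form 3 clusters, with 15 genes on chromosome II between 4785898 and 5810330, 10 on chromosome IV between 5055631 and 5316906, and 10 on chromosome IV between 9689015 and 10144175. A cluster here ends at a gap of more than 1000000 bases. 26 of the 35 lay within 10000 bases of another sperm gene. The treatment of reads that match several copies is not given in the sources used here, so the level of a single copy is uncertain and the copies were added up. If such reads were left out, they are missing from the sum too. The msp level relative to other families is then too low.

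The summed msp level was far above both controls in 3 libraries and near or below them in others of the same groups. A-labelled libraries 1, 2 and 3 held 312, 1416 and 3447 msp counts. C-labelled libraries 1, 2 and 3 held 224, 1691 and 546 counts, against 349 and 279 counts in control libraries 1 and 3. A-labelled library 3 was thus highest, followed by A-labelled library 2 and C-labelled library 2.

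In CPM, the sum was 8.98, 48.9 and 88.7 in A-labelled libraries 1, 2 and 3. It was 6.68, 39.6 and 15.7 CPM in C-labelled libraries 1, 2 and 3, against 9.37 and 9.26 CPM in control libraries 1 and 3. Relative to the control mean, A-labelled libraries 2 and 3 stood 5.25 and 9.53 times as high and C-labelled libraries 2 and 3 stood 4.25 and 1.69 times as high. A-labelled library 1 stood at 0.964 times and C-labelled library 1 at 0.717 times the control mean. The exact 95% Poisson interval of A-labelled library 1 (8.01 to 10.03 CPM) overlapped those of both controls (8.41 to 10.4 and 8.21 to 10.4 CPM). That of C-labelled library 1 (5.83 to 7.61 CPM) lay below both, and that of C-labelled library 3 (14.4 to 17.1 CPM) above both. These intervals cover counting error only.

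The mean msp level was 48.9 ± 39.9 CPM (SD, n = 3) in the A-labelled libraries and 9.31 ± 0.0728 CPM (n = 2) in the control libraries. The log2 difference was 2.39 ± 1.11 (SE; edgeR quasi-likelihood test, adjusted p = 0.232), so it did not pass the threshold of 0.05. The C-labelled mean was 20.7 ± 17.0 CPM (n = 3), with a log2 difference from control of 1.16 ± 1.07 (edgeR, adjusted p = 0.856). Between the A-labelled and the C-labelled libraries the log2 difference was 1.24 ± 0.91 (edgeR, adjusted p = 0.472). In each comparison at least a single library of the first-named group lay within or below the range of the other group. Taken by replicate number, the msp sum was higher in the A-labelled than in the C-labelled library of all 3 pairs, at 8.98 against 6.68, 48.9 against 39.6 and 88.7 against 15.7 CPM. With the number as a block the log2 difference was 1.22 (edgeR, adjusted p = 0.424). Both comparisons with control share the same 2 control libraries. When A-labelled libraries 2 and 3, the high ones, were omitted together, A-labelled library 1 remained, with a log2 difference from control of -0.039 and no replicate of its own. Without C-labelled library 2, the difference of the C-labelled libraries from control was 0.28 on the log2 scale (edgeR, adjusted p = 1.00). In whole animals, fewer cells of a type and less RNA per cell cannot be told apart.

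**Figure D1:**
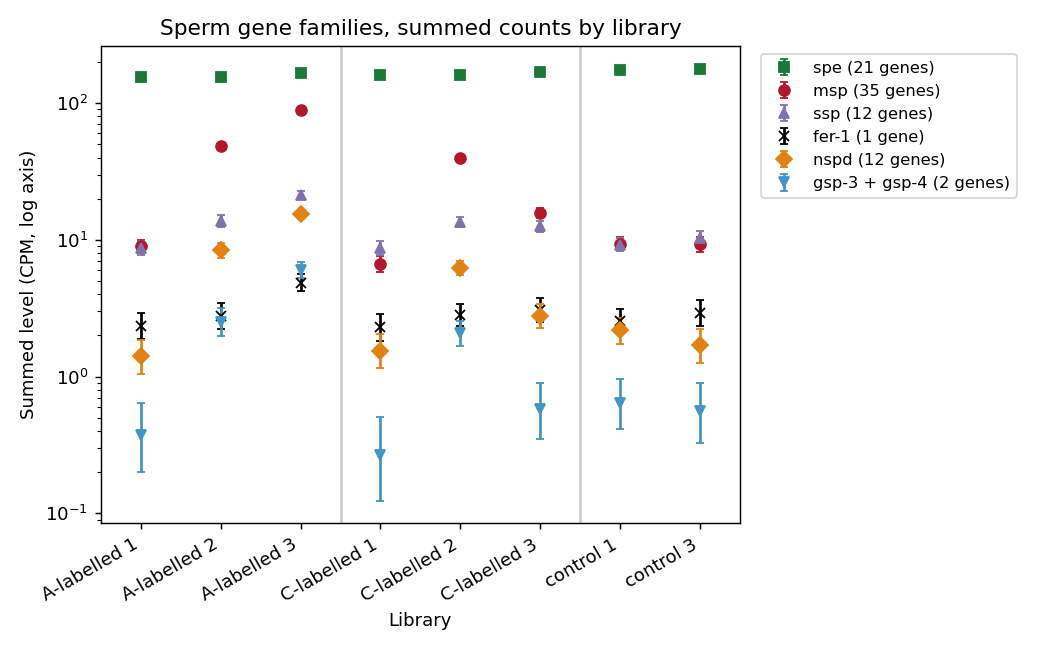
Summed level in CPM (log axis) of each sperm gene family in each library, with exact 95% Poisson intervals. The msp sum reaches 88.7 and 48.9 CPM in A-labelled libraries 3 and 2 and 39.6 CPM in C-labelled library 2, against 9.37 and 9.26 CPM in the controls, while the spe sum lies between 155 and 177 CPM in all 8 libraries.

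The copies with most counts were msp-152, msp-57 and msp-53. msp-152 (WBGene00003470, chromosome II, 4933027 to 4933410) measured 0.834, 3.31 and 4.02 CPM in A-labelled libraries 1, 2 and 3. In C-labelled libraries 1, 2 and 3 it measured 0.328, 1.71 and 0.893 CPM, against 0.483 and 0.531 CPM in the controls. All 3 A-labelled libraries lay above both controls for this copy, with a log2 difference of 2.42 ± 0.85 (edgeR, adjusted p = 0.145). msp-57 (chromosome IV, 5062578 to 5062961) measured 0.547, 2.42 and 4.30 CPM in the A-labelled and 0.298, 2.02 and 0.547 CPM in the C-labelled libraries, against 0.456 and 0.199 CPM in the controls. msp-53 (chromosome IV, 5064678 to 5065061) measured 0.316, 2.21 and 4.38 CPM in the A-labelled and 0.537, 1.90 and 0.576 CPM in the C-labelled libraries, against 0.456 and 0.266 CPM in the controls, and its groups overlapped. The other 9 msp genes with a mean of at least 1 CPM (msp-19, msp-31, msp-33, msp-36, msp-40, msp-51, msp-59, msp-76 and msp-81) also had their 3 highest levels in A-labelled libraries 3 and 2 and C-labelled library 2. Across these 9, log2 differences of A-labelled against control libraries ran from 2.16 for msp-31 to 2.97 for msp-33 (edgeR, adjusted p of 0.222 and 0.195). msp-31 overlaps aagr-2, and msp-33 overlaps gst-9 on the opposite strand, so reads of these neighbours may not be told apart here. 

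Of the 35 msp genes, 31 passed the filter on low counts, which asked for at least 0.291 CPM in at least 2 libraries. Only 10 of these reached that level in both controls. In 33 of the 35, A-labelled libraries 2 and 3 and C-labelled library 2 held the 3 highest levels. The copies on chromosome II supplied 29.0 to 39.3% of the msp counts of a library. In A-labelled library 1 the copy msp-152 made up 9.29% of the msp sum, its highest share, and in control library 1 it had 18 of 349 msp counts. The pseudogenes supplied 1.92 to 4.30% of the msp counts, with 160 counts for msp-52, 88 for msp-71, 23 for msp-42 and 4 for msp-37 over all 8 libraries. Whether those are reads of intact copies was not tested.

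The nspd genes, which encode short nematode-specific peptides, had their 3 highest sums in the same libraries as the msp genes. Their sum was 1.41, 8.39 and 15.3 CPM in A-labelled libraries 1, 2 and 3. It was 1.55, 6.21 and 2.79 CPM in C-labelled libraries 1, 2 and 3, against 2.17 and 1.69 CPM in the controls. A-labelled libraries 2 and 3 and C-labelled library 2 again stood far above the controls, and the A-labelled and control groups overlapped through A-labelled library 1. The log2 difference was 2.11 ± 1.04 for A-labelled against control libraries (edgeR, adjusted p = 0.252). It was 0.87 ± 1.01 for C-labelled against control libraries (edgeR, adjusted p = 0.889) and 1.24 ± 0.85 for A-labelled against C-labelled libraries (edgeR, adjusted p = 0.446).

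Within the family, members described here were chosen after their values were seen. nspd-3 measured 0.144, 1.45 and 2.81 CPM in the A-labelled and 0.238, 0.867 and 0.576 CPM in the C-labelled libraries, against 0.242 and 0.199 CPM in the controls. nspd-5 measured 0.115, 1.07 and 1.83 CPM in the A-labelled and 0.0894, 0.797 and 0.317 CPM in the C-labelled libraries, against 0.0805 and 0.133 CPM in the controls. Its log2 difference of 3.23 ± 1.32 for A-labelled against control libraries was the highest of any tested sperm gene (edgeR, adjusted p = 0.179). nspd-7 had a flatter profile, at 0.719, 0.863 and 2.03 CPM in the A-labelled and 0.596, 1.34 and 0.605 CPM in the C-labelled libraries, against 0.617 and 0.598 CPM in the controls. nspd-9 had 1 to 9 counts in every library. nspd-8 and nspd-11 had no counts at all, and nspd-12 had a single count. These 4 did not pass the filter.

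The genes gsp-3 and gsp-4 encode closely related sperm-specific protein phosphatases of type 1, needed for sperm motility. Their summed level was 0.374, 2.52 and 6.05 CPM in A-labelled libraries 1, 2 and 3. It was 0.268, 2.09 and 0.576 CPM in C-labelled libraries 1, 2 and 3, against 0.644 and 0.564 CPM in the controls. The order of the libraries was led by the same 3 as for msp. On the log2 scale the difference was 2.30 ± 1.26 for A-labelled against control libraries (edgeR, adjusted p = 0.295), 0.72 ± 1.27 for C-labelled against control libraries (edgeR, adjusted p = 0.931) and 1.58 ± 1.02 for A-labelled against C-labelled libraries (edgeR, adjusted p = 0.422). gsp-3 alone measured 0.144, 1.48 and 3.24 CPM in the A-labelled and 0.179, 1.08 and 0.317 CPM in the C-labelled libraries, against 0.322 and 0.266 CPM in the controls. gsp-4 measured 0.230, 1.04 and 2.81 CPM in the A-labelled and 0.0894, 1.008 and 0.259 CPM in the C-labelled libraries, against 0.322 and 0.299 CPM in the controls. Each had 3 to 12 counts in every library other than A-labelled libraries 2 and 3 and C-labelled library 2.

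The ssp genes encode small sperm proteins with a domain related to MSP, and they fell into unlike profiles. ssp-9 measured 0.316, 1.52 and 2.96 CPM in the A-labelled and 0.0298, 1.27 and 0.518 CPM in the C-labelled libraries, against 0.349 and 0.199 CPM in the controls. ssp-11, a separate row whose gene ID carries the symbol ssp-9 in the reference annotation, measured 0.259, 1.48 and 2.86 CPM in the A-labelled and 0.238, 1.24 and 0.490 CPM in the C-labelled libraries, against 0.295 and 0.199 CPM in the controls. Both thus rank the libraries much as msp does. ssp-37, the most abundant of the family, measured 6.70, 6.11 and 8.34 CPM in the A-labelled and 6.86, 7.24 and 8.76 CPM in the C-labelled libraries, against 6.17 and 7.24 CPM in the controls. ssp-10 measured 0.662, 2.31 and 2.47 CPM in the A-labelled and 1.13, 1.83 and 1.67 CPM in the C-labelled libraries, against 1.64 and 2.12 CPM in the controls. For these genes the groups overlapped, with log2 differences of 0.08 ± 0.18 for ssp-37 and -0.05 ± 0.49 for ssp-10 between A-labelled and control libraries.

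The ssp sum, to which ssp-37 and ssp-10 contribute, was 8.72, 13.8 and 21.2 CPM in the A-labelled and 8.76, 13.6 and 12.5 CPM in the C-labelled libraries, against 9.23 and 10.4 CPM in the controls. Its log2 difference from control was 0.57 ± 0.36 for the A-labelled (edgeR, adjusted p = 0.340) and 0.25 ± 0.35 for the C-labelled libraries (edgeR, adjusted p = 0.907). Between A-labelled and C-labelled libraries it was 0.32 ± 0.31 (edgeR, adjusted p = 0.578). Without ssp-10 and ssp-37, which were set aside after their values had been seen, the other 10 members summed to 1.35, 5.35 and 10.4 CPM in the A-labelled and 0.775, 4.52 and 2.103 CPM in the C-labelled libraries, against 1.42 and 1.03 CPM in the controls.

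The proportions of nspd, gsp and low ssp counts to msp counts were compared between libraries. As a share of nspd and msp counts together, nspd made up 13.6, 14.6 and 14.7% in A-labelled libraries 1, 2 and 3. Across C-labelled libraries 1, 2 and 3 it made up 18.8, 13.5 and 15.1%, against 18.8 and 15.5% in the controls. The exact binomial 95% interval was 13.7 to 15.9% in A-labelled library 3, against 15.3 to 22.9% in control library 1 and 11.7 to 19.8% in control library 3. The share of gsp-3 and gsp-4 among their own and msp counts ran from 3.53 to 6.43% over the 8 libraries. It was 6.38% in A-labelled library 3 (interval 5.61 to 7.22%) and 3.53% in C-labelled library 3 (2.17 to 5.40%). These intervals do not overlap, but the pair was picked out after the values were seen. The intervals of control libraries 1 and 3 (4.17 to 9.42% and 3.38 to 9.04%) overlapped both. All these intervals cover counting error only, and replicates differed by more than that. The same share for ssp-9, ssp-11 and ssp-16 ran from 5.49 to 7.69%.

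**Figure D2:**
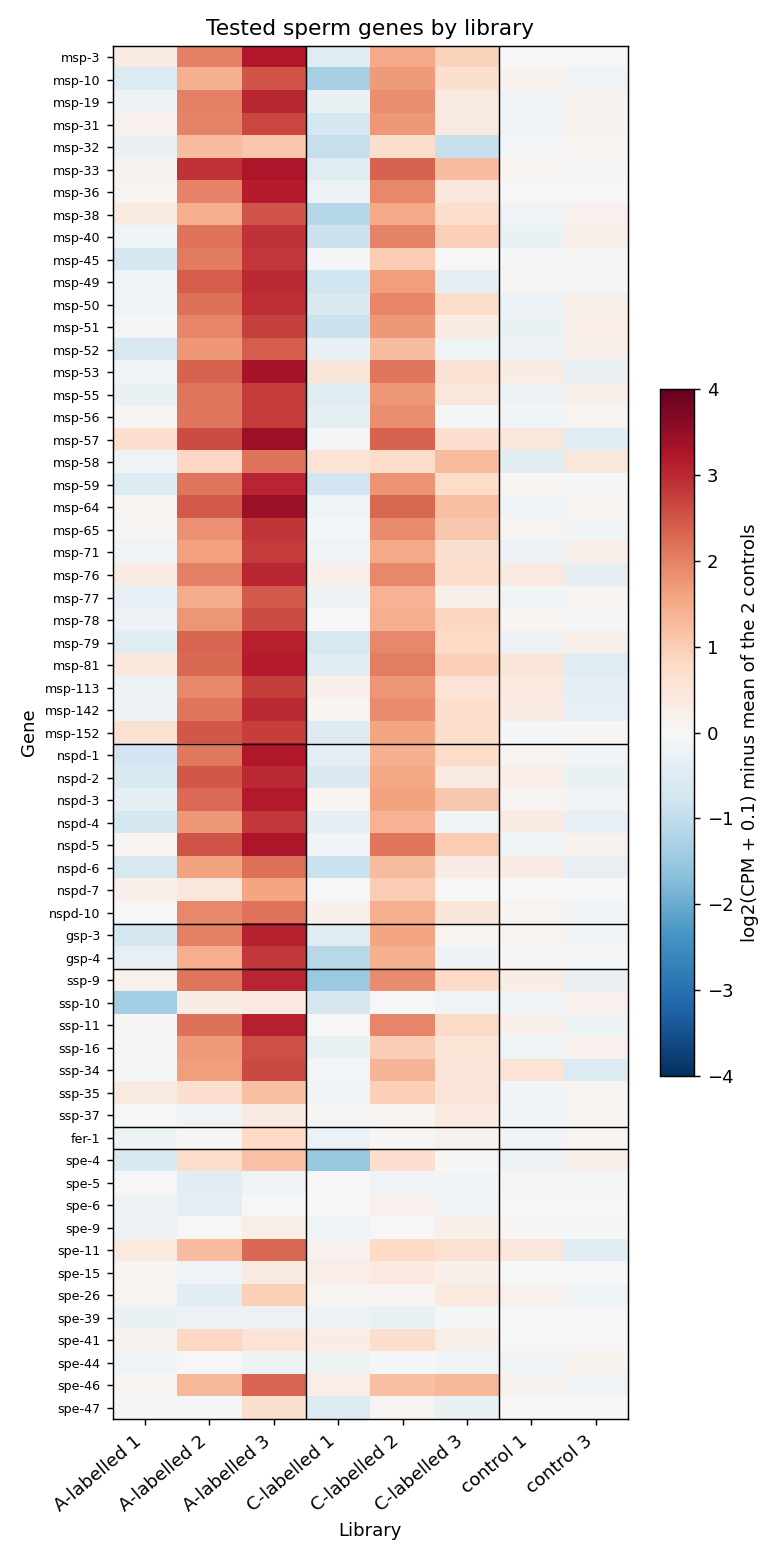
log2(CPM + 0.1) of the 61 tested sperm genes (rows, by family) in each library (columns), minus the mean of the 2 controls. Most msp, nspd and gsp rows are red in A-labelled libraries 2 and 3 and in C-labelled library 2, and most spe rows are pale in all 8 libraries.

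The spe genes, named for mutants with defective sperm, mostly had like levels in all groups. The summed spe level was 155, 155 and 165 CPM in the A-labelled and 161, 161 and 169 CPM in the C-labelled libraries, against 174 and 177 CPM in the controls. The member with most counts was spe-39, whose product acts in vesicle trafficking in many tissues besides sperm. spe-39 (WBGene00004975, chromosome V, 6785451 to 6787864) measured 90.7, 93.0 and 92.6 CPM in the A-labelled and 94.97, 89.5 and 103 CPM in the C-labelled libraries, against 109 and 110 CPM in the controls. Every A-labelled and C-labelled library lay below both controls. The log2 difference was -0.25 ± 0.06 for A-labelled (edgeR, adjusted p = 0.121) and -0.19 ± 0.06 for C-labelled against control libraries (edgeR, adjusted p = 0.522).

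Other well-counted spe genes showed no difference past the threshold. spe-44, which encodes a transcription factor of the spermatogenesis program, measured 19.7, 22.1 and 18.8 CPM in the A-labelled and 18.7, 21.1 and 20.0 CPM in the C-labelled libraries, against 19.8 and 23.6 CPM in the controls. spe-5, a subunit gene of the vacuolar proton pump that overlaps ift-20 on the opposite strand, measured 19.4, 14.3 and 17.7 CPM in the A-labelled and 19.8, 17.8 and 18.3 CPM in the C-labelled libraries, against 20.4 and 18.9 CPM in the controls. spe-15, a class VI myosin gene, measured 14.99, 12.8 and 18.05 CPM in the A-labelled and 17.0, 18.6 and 16.3 CPM in the C-labelled libraries, against 13.9 and 14.4 CPM in the controls. All 3 C-labelled libraries lay above both controls for spe-15, with a log2 difference of 0.29 ± 0.15 (edgeR, adjusted p = 0.743). This gene overlaps gst-25 on the opposite strand, whose reads may not be told apart here. The casein kinase 1-like gene spe-6 measured 3.91, 3.49 and 4.56 CPM in the A-labelled and 4.50, 5.16 and 4.21 CPM in the C-labelled libraries, against 4.51 and 4.58 CPM in the controls.

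A-labelled library 3 held the highest level in 13 of the 21 spe genes and in 6 of the 12 tested. Of these, spe-11 and spe-46 were picked out after their values were seen. spe-11, whose product is carried by the sperm into the egg and acts in the early embryo, measured 0.432, 0.863 and 1.91 CPM in the A-labelled and 0.358, 0.609 and 0.518 CPM in the C-labelled libraries, against 0.456 and 0.199 CPM in the controls. Its log2 difference for A-labelled against control libraries was 1.68 ± 0.66 (edgeR, adjusted p = 0.161). spe-46 measured 0.173, 0.552 and 1.21 CPM in the A-labelled and 0.209, 0.492 and 0.547 CPM in the C-labelled libraries, against 0.188 and 0.133 CPM in the controls. For both genes A-labelled library 1 lay within the range of the controls. spe-41, a calcium channel gene of the sperm membrane, peaked in A-labelled library 2 and measured 3.02, 4.90 and 4.07 CPM in the A-labelled and 3.40, 4.55 and 3.23 CPM in the C-labelled libraries, against 2.71 and 2.76 CPM in the controls. All 6 RNAi libraries lay above both controls for spe-41, with log2 differences of 0.55 ± 0.24 for A-labelled (edgeR, adjusted p = 0.199) and 0.45 ± 0.24 for C-labelled libraries (edgeR, adjusted p = 0.756).

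Genes of fertilization and organelle fusion differed among themselves. spe-9, whose product is needed on the sperm surface for fertilization, measured 0.316, 0.380 and 0.463 CPM in the A-labelled and 0.328, 0.375 and 0.461 CPM in the C-labelled libraries, against 0.403 and 0.365 CPM in the controls. It overlaps a gene on the opposite strand, whose reads cannot be told apart here. spe-38 and spe-42 encode sperm membrane proteins needed for fertilization and did not pass the filter. spe-38 had 1, 2 and 2 counts in the A-labelled and 2, 7 and 4 counts in the C-labelled libraries, against 9 and 4 counts in the controls. spe-42 had 5, 4 and 17 counts in the A-labelled and 4, 4 and 5 counts in the C-labelled libraries, against 5 and 4 counts in the controls. The high library of spe-42 was A-labelled library 3, whereas spe-38 was lower in all 3 A-labelled libraries than in both controls, at very few counts. fer-1, the ferlin gene needed for fusion of the membranous organelles of sperm, measured 2.36, 2.80 and 4.87 CPM in the A-labelled and 2.30, 2.84 and 3.08 CPM in the C-labelled libraries, against 2.55 and 2.92 CPM in the controls. Its highest library was A-labelled library 3, at 1.78 times the control mean, and its log2 difference was 0.29 ± 0.31 for A-labelled against control libraries (edgeR, adjusted p = 0.580). spe-26, a kelch-family gene that overlaps another gene on the opposite strand, measured 0.978, 0.656 and 1.83 CPM in the A-labelled and 0.984, 0.961 and 1.21 CPM in the C-labelled libraries, against 1.02 and 0.797 CPM in the controls.

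Per length, each single msp copy stood below the most abundant sperm genes, although the level of a single copy is uncertain. As a mean of the authors' RPKM over 8 libraries, spe-39 stood at 51.8, ssp-37 at 15.9, spe-44 at 12.5 and spe-5 at 11.4 RPKM. The msp copy with the highest mean, msp-152, stood at 3.29 RPKM and nspd-7, the highest of its family, at 2.61 RPKM. Summed over its 35 genes, msp reached 20.5, 105 and 203 RPKM in A-labelled libraries 1, 2 and 3 and 15.5, 87.8 and 35.98 RPKM in C-labelled libraries 1, 2 and 3, against 21.5 and 20.9 RPKM in the controls. The 21 spe genes summed to 84.4, 79.7 and 90.6 RPKM in the A-labelled and 86.9, 84.6 and 90.9 RPKM in the C-labelled libraries, against 95.8 and 94.4 RPKM in the controls.

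Counted over all 83 genes, the mean was higher in the A-labelled than in the control libraries for 72 genes and lower for 8. It was higher in the C-labelled than in the control libraries for 68 genes and lower for 13, and higher in the A-labelled than in the C-labelled libraries for 71 and lower for 10. 61 genes passed the filter. Of the 22 that did not, 20 had counts and 2 had none. 19 of those that passed had no control library at the filter's level, so they entered through RNAi libraries and their direction was partly set by the filter. The nearly alike msp copies make up 35 of the 83 genes and 31 of the 61 tested. Counts and medians over these genes, here and below, thus partly repeat a single msp signal.

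Between A-labelled and control libraries, edgeR called 0 of the 61 tested sperm genes, as it called 0% of all 14772 genes. The log2 difference was above 0 for 56 of the 61, beside 54.5% of all genes. At an unadjusted p below 0.05, 12 sperm genes were higher and 1, spe-39, was lower, beside 13.7% of all genes higher and 12.3% lower. The median log2 difference was 2.27 over the tested sperm genes and 0.03 over all tested genes. DESeq2 gave an adjusted p for 49 of the 61 and called 6 as higher (msp-33, msp-53, msp-57, msp-64, msp-76 and msp-152), beside 5.81% of all genes. It called spe-39 as lower (DESeq2, adjusted p = 0.0223), beside 2.43% of all genes, and 8.24% of all genes were called in either direction. All 3 A-labelled libraries stood above both controls for 11 of the 61 sperm genes, beside 21.5% of all genes, and below both for spe-39 alone, beside 22.2%. Without A-labelled library 1, edgeR called 14 of 61 as higher, beside 8.85% of all genes called in either direction. These were 5 msp genes, 5 nspd genes, ssp-11, ssp-16, spe-11 and spe-46. The omitted library was the A-labelled one near the controls in the msp sum, so leaving it out raised the msp difference. Some of the 14, such as msp-3 and nspd-5, had no control library at the filter's level, so their direction was partly set by the filter.

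Between C-labelled and control libraries, edgeR again called 0 of 61, beside 0.0948% of all genes, and DESeq2 called 0 of the 26 to which it gave an adjusted p, beside 1.2%. A log2 difference above 0 was found for 55 of 61, beside 46.5% of all genes. At an unadjusted p below 0.05, no sperm gene was higher and spe-39 was lower, beside 4.32% of all genes higher and 3.02% lower. The median log2 difference was 0.96 over the tested sperm genes and -0.01 over all tested genes. All 3 C-labelled libraries stood above both controls for 6 sperm genes, beside 12.7% of all genes, and below both for spe-39, beside 15.5%. Between A-labelled and C-labelled libraries, edgeR called 0 of 61, beside 0.0406% of all genes, and DESeq2 called 0, beside 4.42%. No sperm gene had an unadjusted p below 0.05, beside 11.6% of all genes higher and 7.59% lower. The log2 difference was above 0 for 55 of 61, beside 54% of all genes, with a median of 1.18 over the sperm genes and 0.02 over all genes. The groups overlapped for every tested sperm gene, whereas 12.7% of all genes had every A-labelled library higher and 11.2% every one lower. Same-numbered libraries of these groups deviated from their group means together. For number 3 the correlation was 0.22, below that of A-labelled library 3 with C-labelled library 2 (0.30). With the replicate number as a block, msp-152 was called as higher in the A-labelled libraries (log2 difference 1.49, edgeR, adjusted p = 0.0441). This was 1 of 61, beside 11.5% of all genes called in either direction. Without A-labelled library 1, msp-45 was called (log2 difference 2.32, edgeR, adjusted p = 0.0206), beside 5.08% of all genes.

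**Figure D3:**
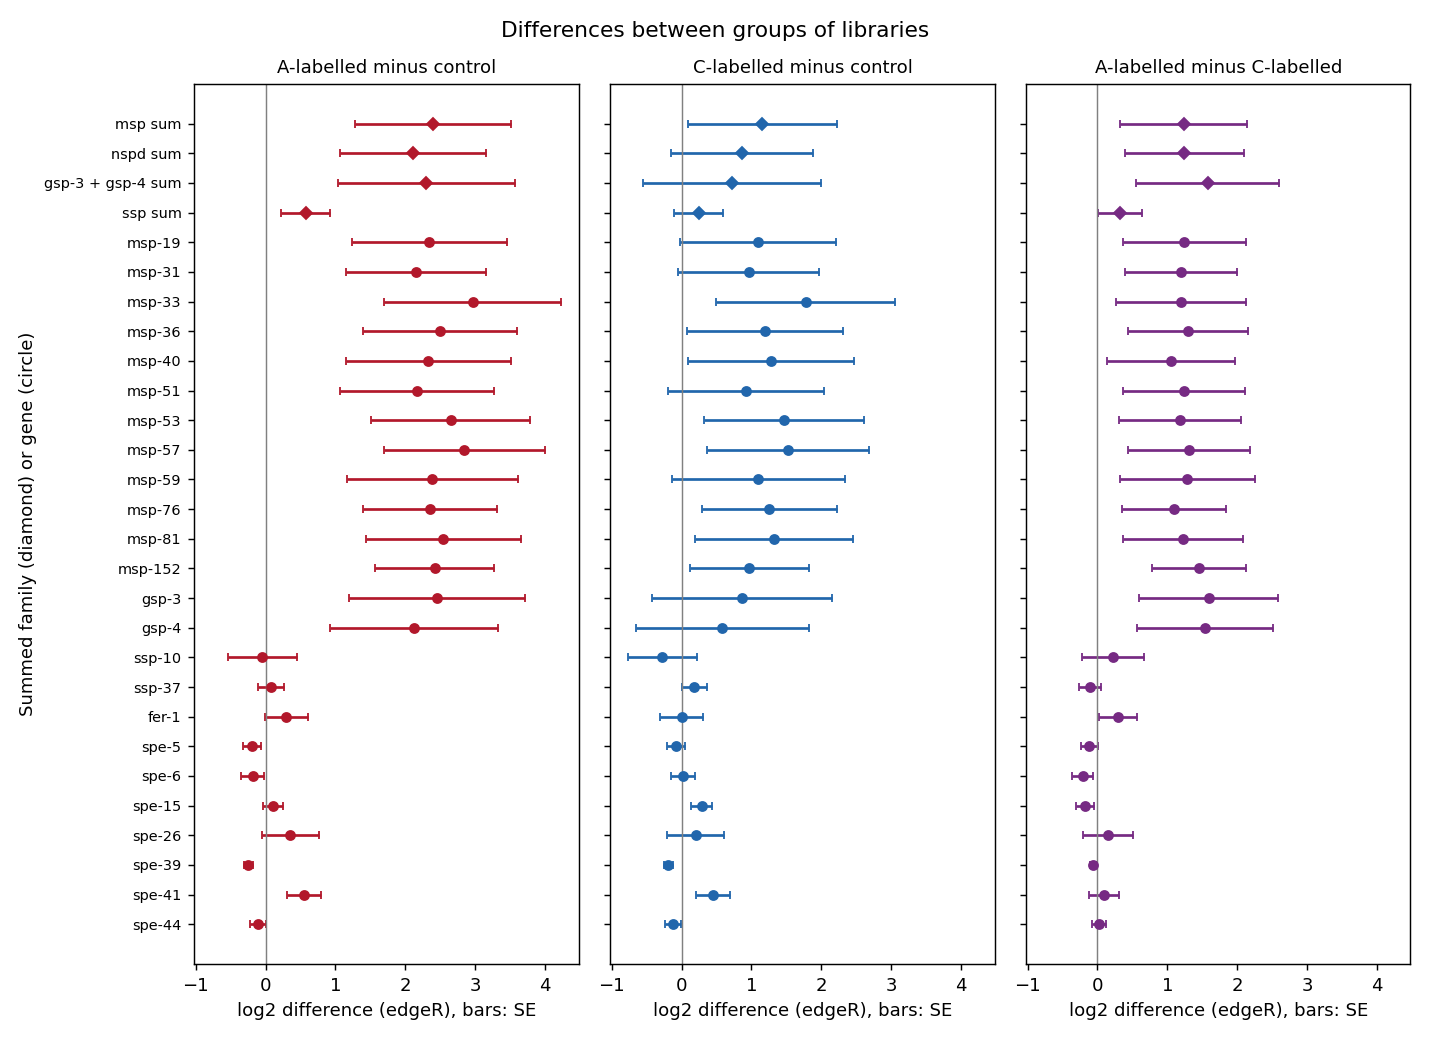
log2 differences with standard errors (edgeR) of the 4 summed families (diamonds) and of the tested sperm genes with a mean of at least 1 CPM plus gsp-3 and gsp-4 (circles), in the 3 comparisons. The msp, nspd and gsp points of the A-labelled comparison lie between 2.11 and 2.97 with wide bars, and most spe points lie near 0 with narrow bars.

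The order of the libraries was alike across most msp and nspd genes. A-labelled library 3 held the highest level in 53 of the 61 tested genes, against 9.69% of all tested genes. A-labelled libraries 2 and 3 and C-labelled library 2 held the 3 highest levels in 48 of the 61, against 6.98% of all tested genes. By family, that held for 30 of 31 msp, 8 of 8 nspd, 5 of 7 ssp and 3 of 12 spe genes. This count was formed after the order of the msp sum had been seen, and the msp genes make up that sum. Of the 61 tested genes, 19 had no control library at the filter's level. Those passed through RNAi libraries, so their order was partly set by the filter.

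Sperm genes outside the named classes gave a similar picture. Of 22 such genes listed, 18 were found in the table under the listed symbol and 17 were tested. Their summed level was 6.59, 26.4 and 52.4 CPM in the A-labelled and 5.72, 23.6 and 9.22 CPM in the C-labelled libraries, against 8.13 and 6.21 CPM in the controls. 17 of 17 had a positive log2 difference between A-labelled and control libraries, beside 54.5% of all genes, with a median of 2.29. edgeR called 0, and 6 were higher at an unadjusted p below 0.05, beside 13.7% of all genes. DESeq2 called 5 of them as higher, including spch-1 and spch-2, beside 5.81% of all genes. The list was written with the behaviour of the msp genes known. spch-2, a sperm chromatin protein gene, measured 0.460, 1.07 and 3.45 CPM in the A-labelled and 0.268, 0.914 and 0.490 CPM in the C-labelled libraries, against 0.161 and 0.232 CPM in the controls. spch-1, of the same family, measured 0.489, 2.07 and 4.45 CPM in the A-labelled libraries, against 0.295 and 0.266 CPM in the controls. The members of this list with most counts were ssq-4 and ssq-2, of a further sperm-specific class. ssq-4 measured 0.575, 2.38 and 5.87 CPM in the A-labelled and 0.477, 2.91 and 0.720 CPM in the C-labelled libraries, against 0.859 and 0.365 CPM in the controls. ssq-2 measured 0.633, 3.31 and 5.20 CPM in the A-labelled libraries, against 0.671 and 0.564 CPM in the controls.

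Among 13 regulators of sperm fate and spermatogenesis, 6 had a positive and 7 a negative log2 difference between A-labelled and control libraries, and none was called (edgeR, smallest adjusted p = 0.121). At an unadjusted p below 0.05, 1 was higher and 5 were lower, beside 13.7% of all genes higher and 12.3% lower. DESeq2 called 2 as higher, which were alg-3 and alg-4, beside 5.81% of all genes, and 2 as lower, which were cpb-1 and fog-2, beside 2.43%. alg-3 and alg-4, Argonaute genes of spermatogenesis, had the largest differences of the list. alg-3 measured 0.403, 2.21 and 5.23 CPM in the A-labelled and 0.328, 1.27 and 0.749 CPM in the C-labelled libraries, against 0.403 and 0.199 CPM in the controls. alg-4 measured 0.316, 1.97 and 5.87 CPM in the A-labelled and 0.358, 1.27 and 0.432 CPM in the C-labelled libraries, against 0.483 and 0.398 CPM in the controls. The sex-determination genes with most counts, fem-2 and tra-2, had log2 differences of -0.13 ± 0.06 and -0.12 ± 0.07. The list summed to 686, 618 and 659 CPM in the A-labelled and 725, 698 and 685 CPM in the C-labelled libraries, against 740 and 711 CPM in the controls.

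Markers of males had low levels in every library. The 12 listed genes of male neurons, tail and seminal fluid summed to 1.87, 2.17 and 2.45 CPM in the A-labelled and 1.67, 1.73 and 1.27 CPM in the C-labelled libraries, against 1.58 and 1.46 CPM in the controls. 4 of the 12 were tested and none was called by edgeR or DESeq2, with 2 higher at an unadjusted p below 0.05 between A-labelled and control libraries, beside 13.7% of all genes. pkd-2, lov-1 and cwp-1, which define male sensory neurons, had 0 to 3 counts in every library. cwp-4, on the same list, had 10 counts in each A-labelled library. In C-labelled libraries 1, 2 and 3 it had 6, 18 and 3 counts, against 12 and 13 counts in the controls. The seminal fluid protease gene try-5 measured 0.719, 0.690 and 0.798 CPM in the A-labelled and 0.894, 0.703 and 0.634 CPM in the C-labelled libraries, against 0.698 and 0.764 CPM in the controls. mab-3, a regulator of male development, measured 0.403, 0.345 and 0.721 CPM in the A-labelled libraries, against 0.268 and 0.0996 CPM in the controls. ram-5 measured 0.259, 0.345 and 0.309 CPM in the A-labelled libraries, against 0.0537 and 0.0332 CPM in the controls. The part of male cells in the sperm gene levels was not tested.

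The sums of the larval moult genes were highest in A-labelled libraries 2 and 3, as was that of the msp genes. The 15 listed genes summed to 230, 561 and 469 CPM in the A-labelled and 157, 159 and 154 CPM in the C-labelled libraries, against 189 and 164 CPM in the controls. C-labelled library 2, with 4.25 times the control msp level, stood at 0.903 times the control level of this sum, of which nhr-23 made up 74.2 CPM there. Single members differed from the sum in that library. 14 of 15 had a positive log2 difference between A-labelled and control libraries, beside 54.5% of all genes. All 14 had an unadjusted p below 0.05, beside 13.7% of all genes, and 0 were called by edgeR (smallest adjusted p = 0.121), while DESeq2 called 13 as higher, beside 5.81%. Between C-labelled and control libraries neither tool called any of the 15, and 0 had an unadjusted p below 0.05. In that comparison the log2 difference was above 0 for 4 and below 0 for 11, beside 46.5% of all genes above 0. The cuticle collagen gene bli-1 measured 0.316, 6.56 and 28.6 CPM in the A-labelled and 0.179, 1.66 and 1.18 CPM in the C-labelled libraries, against 0.429 and 0.531 CPM in the controls. bli-2, of the same class, measured 0.173, 2.48 and 14.5 CPM in the A-labelled and 0.358, 0.727 and 0.461 CPM in the C-labelled libraries, against 0.242 and 0.398 CPM in the controls. Both collagen genes thus ranked A-labelled library 3, A-labelled library 2, C-labelled library 2 and C-labelled library 3 highest, in the order of the msp sum. Other members did not: sqt-1 and qua-1 measured 48.0 and 25.6 CPM in A-labelled library 2, against 32.8 and 20.6 CPM in A-labelled library 3. In C-labelled library 2 they measured 3.47 and 2.27 CPM, below both controls. noah-1 measured 42.2, 95.9 and 69.5 CPM in the A-labelled and 21.4, 18.3 and 18.98 CPM in the C-labelled libraries, against 27.2 and 18.9 CPM in the controls, while nhr-23 had a log2 difference of -0.09. The part of larval or moulting animals in the sperm gene levels was not tested.

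Sums over oocyte genes and over genes of the response to MSP lay close together in the 8 libraries. The 10 oocyte and eggshell genes summed to 12694, 12756 and 12375 CPM in the A-labelled and 13065, 13192 and 12780 CPM in the C-labelled libraries, against 12830 and 13426 CPM in the controls. The 16 genes of MSP sensing and oocyte maturation summed to 2493, 2491 and 2487 CPM in the A-labelled and 2561, 2607 and 2525 CPM in the C-labelled libraries, against 2553 and 2627 CPM in the controls. oma-2 and oma-1, with most counts in that list, had log2 differences of -0.12 and -0.04 between A-labelled and control libraries. vab-1, the Eph receptor gene whose product binds MSP, singled out after its values were seen, measured 261, 216 and 256 CPM in the A-labelled libraries, against 290 and 291 CPM in the controls (log2 difference -0.25, edgeR, adjusted p = 0.124). gsa-1, which encodes the G protein alpha subunit that acts in the sheath cells, measured 10.99, 17.6 and 14.1 CPM in the A-labelled libraries, against 8.35 and 8.101 CPM in the controls (log2 difference 0.79, edgeR, adjusted p = 0.121). efn-2, an ephrin gene, had a log2 difference of 0.63. Among the oocyte and eggshell genes, cbd-1 and perm-4 had the highest CPM, with log2 differences of -0.00061 and -0.034, and egg-3 and egg-2 the largest differences, of -0.20 and -0.19. edgeR called 0 genes of these lists. Between A-labelled and control libraries 4 response genes were higher and 1 lower at an unadjusted p below 0.05, and 4 oocyte genes were lower, beside 13.7% of all genes higher and 12.3% lower. In that comparison DESeq2 called 3 response genes, gsa-1 among them, as higher, beside 5.81% of all genes, and 2 oocyte genes as lower, beside 2.43%.

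Early zygotic transcripts, which appear once eggs are fertilized, had a different order of libraries from the msp sum. The 11 found genes summed to 123, 111 and 117 CPM in the A-labelled and 129, 126 and 114 CPM in the C-labelled libraries, against 75.5 and 64.6 CPM in the controls. All 6 RNAi libraries lay above both controls, including A-labelled library 1 and C-labelled library 1, which held the least msp. Of this list edgeR called vet-2 alone, between C-labelled and control libraries (log2 difference 0.85, adjusted p = 0.0135), beside 0.0948% of all genes. DESeq2 called 3 as higher between A-labelled and control libraries, beside 5.81% of all genes, and 4 between C-labelled and control libraries, beside 1.2% of all genes in either direction.

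**Figure D4:**
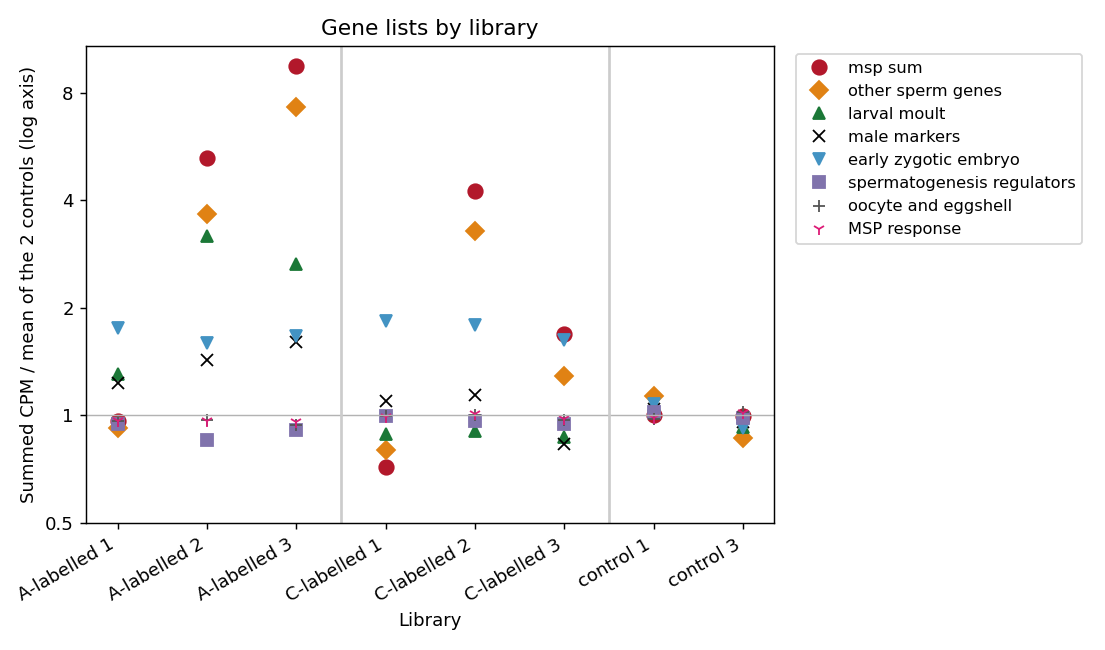
Summed CPM of the msp genes and of 7 other gene lists in each library, divided by the mean of the 2 controls (log axis). In C-labelled library 2 the msp sum stands at 4.25 and the moult list at 0.903, and in A-labelled library 2 they stand at 5.25 and 3.18. Single moult genes differed in C-labelled library 2. There bli-1 and bli-2 measured 1.66 and 0.727 CPM, above both controls, and qua-1 and sqt-1 measured 2.27 and 3.47 CPM, below both.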

How the data were processed

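Whole-worm RNA of 8 samples was sequenced from TruSeq RNA v2 libraries, per the labels' protocols. The kit does not mark the strand. The submitters' processing notes name TopHat2 2.1.0, featureCounts 1.5.0, bcl2fastq 1.8.4 and build WBcel235. The authors deposited whole-number counts, RPM (each count scaled to its column total) and RPKM values (RPM per length). RPKM served only for levels between genes. Coordinates come from the Ensembl annotation of WBcel235, where all 83 genes were found.

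Counts were filtered by edgeR's expression filter by group (10 counts at the median library size in at least 2 libraries), leaving 14772 genes, and scaled by TMM. The main test was that of edgeR 4.0.16, run under R 4.3.3 (robust quasi-likelihood F test, 3 groups, all 8 libraries, Benjamini-Hochberg adjustment per comparison, threshold 0.05). Family sums replaced their members in a second fit over 14728 features. Each standard error is the absolute log2 difference over the root of its F statistic. DESeq2 1.42.0 was an alternative. The fits were tested on simulated data with a small, fixed spread between libraries. The msp sum varied far more within the RNAi groups, so that test does not bear on it.

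Genes described singly were family sums, genes with a mean of at least 1 CPM, the 3 msp genes with most counts, fer-1, gsp-3 and gsp-4, and of each list the members past the threshold or else the 2 with most counts and the 2 with the largest difference between A-labelled and control libraries. Others were chosen after their values were seen. The members and lists were chosen with earlier results of these data known. Replicates differed by more than sampling noise (chi-square of at least 17.6 per degree of freedom). Same-numbered A-labelled and C-labelled libraries correlated in their deviations from group means (0.61, 0.43 and 0.22 for numbers 1, 2 and 3). A-labelled library 3 correlated more with C-labelled library 2 (0.30) than with C-labelled library 3. On the evidence of the data alone, the numbers may thus pair these libraries, least clearly for number 3. The main test ignored the numbers and treated no libraries as paired. The alternative edgeR fit called the replicate block used them for every library, including the controls, which share numbers 1 and 3 only.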

Additional observations from a re-analysis of the deposited data

How the results depend on the processing

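The msp difference kept its sign and stayed short of the threshold under RLE scaling, no filter, DESeq2, the replicate block, fits of 2 groups and every omission of a single library. Over these omissions it ran from 1.61 to 2.89 for A-labelled against control, 0.28 to 1.57 for C-labelled against control and 0.45 to 2.11 for A-labelled against C-labelled libraries. With the replicate block it was 1.53, 0.31 and 1.22 for these comparisons. Without A-labelled libraries 2 and 3 together it was -0.039 for A-labelled against control and -1.21 for A-labelled against C-labelled libraries, where 1 A-labelled library remained and was assumed to vary like the others. The number of sperm genes called for A-labelled against control libraries was 0 in edgeR and 7 in DESeq2, and 0 to 14 when single libraries were omitted. For A-labelled against C-labelled libraries it was 1 with the replicate block and 0 to 1 when single libraries were omitted. The block changed no other call. For C-labelled against control libraries, 0 sperm genes were called in every fit run, by edgeR or DESeq2. The cause of these shifts was not tested. Omitting A-labelled library 3 or 1, or C-labelled library 2 or 1, gave the ends of these ranges. Counts are low: 19 of the 61 tested sperm genes had no control library at 0.291 CPM, so their folds are imprecise.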
